A study of Mus musculus with 9 samples.

Results

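The genes described here encode collagens, laminins and other proteins of the extracellular matrix, and were chosen by name: every probe whose symbol is a collagen chain, a laminin chain, or one of 15 further matrix glycoproteins and proteoglycans. The array held 92 such probes for 66 genes, out of 29922 probes and 16637 gene symbols in all. They fall into 11 fibrillar collagens, 9 fibril-associated collagens, 15 other collagens, 18 basement membrane genes, 7 brain matrix genes, and 6 small leucine-rich proteoglycans and glycoproteins. Together they include 41 collagen and 10 laminin genes.

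The study measured transcripts in mouse hippocampus, a brain region needed to form new memories, on 9 two-colour arrays. Its 8 mice were female, with 2 mice in each of 4 groups: 3xTG at 12 months, 3xTG at 3 months, WT at 12 months and WT at 3 months. The 3xTG mice are a line that carries transgenes of mutant APP and tau, and the WT strain is given as 129SV with C57BL6. The promoter that drives the transgenes is not given in the sources used here. RNA of 1 hippocampus per mouse was amplified before labelling, and the 2 RNAs of an array were labelled with Cy3 and Cy5.

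Each array gives a ratio between a pair of mice, with 3 arrays per comparison: 3xTG over WT at 12 months, 3xTG over WT at 3 months, and WT at 12 over 3 months. The first RNA of the ratio was in Cy5 on array 3 of both genotype comparisons and on array 1 of the age comparison, and in Cy3 on the other 6 arrays. Within a comparison the array with its first RNA in Cy5 was the only array of a given mouse. This was 3xTG mouse 7 at 12 months, WT mouse 16 at 3 months and WT mouse 15 in the age comparison. Dye and mouse thus cannot be told apart within a comparison. At 12 months arrays 1 and 2 share 3xTG mouse 4, and arrays 1 and 3 share WT mouse 24. The 12-month values of Col7a1, Col9a1, Col9a2, Dcn and Tnr come from mouse 4 alone among 3xTG mice. The same WT mice serve in more than 1 comparison, so the comparisons are not independent. The direction was read from the sample and reference tags of the labels, since the table does not state it. A value is a log2 ratio relative to the median of its array, so 0 is the array median and 1 is a doubling relative to it. Ratios give no level of a gene, so the labelled tissue could not be checked against absolute marker levels, and fewer cells of a type cannot be told apart from less RNA per cell. The deposited table lists no ratio between -0.5 and 0.5 before centring, and 30 to 45 of the 66 genes were listed on an array. A mean over the listed arrays is therefore a mean over ratios past that limit.

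Fibrillar collagens form the ropes of connective tissue, and in the brain they are found mainly around vessels and in the meninges. Type IV collagen, laminins and nidogens build the basement membrane, the sheet under the endothelium and around the brain surface. Neurons and glia are embedded instead in a matrix of hyaluronan, the lectican proteoglycans (aggrecan, brevican, neurocan, versican), link proteins and tenascins, which condenses into perineuronal nets around some neurons.

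The type IV chains are encoded in head-to-head pairs that share a promoter. In the RefSeq annotation (GRCm38.p6) the annotated Col4a1 and Col4a2 genes overlap on chromosome 8, at 11198423 to 11312889 and 11312805 to 11449287, and Col4a3 and Col4a4 overlap on chromosome 1. Col4a5 and Col4a6 lie 1274 bases apart on the X chromosome. A 30-base stretch held by the promoter windows of both Col4a1 and Col4a2, which run from 250 bases before a start to 50 after it (RefSeq, chr8:11312781-11312810, plus strand) is shown because the pair is compared later. Capitals mark CCCTCCCC, a motif searched on both strands.

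Col4a1 and Col4a2: ttggcgctgccCCCTCCCCtcggcagtgcg

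Promoter sequences matched 48 of the 66 genes, in 53 windows of 250 bases before a start. CCCTCCCC was found in 26.4% of these windows and in 9.69% of all 32851 windows, GGGCGG in 58.5% and 32.7%, TATAAA in 15.1% and 12.4%, and CCAAT in 34.0% and 33.9%. The median G and C content was 59.2% in the windows of matrix genes and 52.4% in all windows, and a match is a description of the letters.

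Across all the matrix genes, no gene passed the test in any comparison. The test took genes with 2 or 3 listed arrays in each comparison, which held for 3944 genes, 16 of them matrix genes. The other 50 enter the figures, medians and shares by their array values, and only some of them are named with these values. At an adjusted p under 0.05 (limma, Benjamini-Hochberg over all genes tested), 0 of the 16 passed in 3xTG over WT at 12 months, where 0% of all genes tested passed, and 0 of 16 passed at 3 months (0% of all genes) and in WT at 12 over 3 months (0% of all genes). For the 3xTG effect at 12 months minus that at 3 months the count was also 0 of 16, against 0% of all genes. At an unadjusted p under 0.05, 1 of the 16 lay above 0 at 12 months, against 15.4% of all genes, and 1 below, against 2.74%. At 3 months 1 lay above, against 10.5% of all genes, and 2 below, against 6.29%. In WT at 12 over 3 months 0 lay above, against 3.32%, and 1 below, against 10.8%. For the difference between the genotype effects 1 lay above, against 6.9%, and 0 below, against 2.54%. Counts of 0 to 2 in 16 genes are too small to be read against these shares.

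The median standard error of a tested matrix gene was 1.08 on the log2 scale at 12 months, 1.01 at 3 months and 1.13 in WT at 12 over 3 months. A 95% interval of a tested gene thus spans several log2 units, such as -2.37 to 1.64 for Ncan at 12 months, and a gene that did not pass is not shown to be unchanged.

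**Figure D1:**
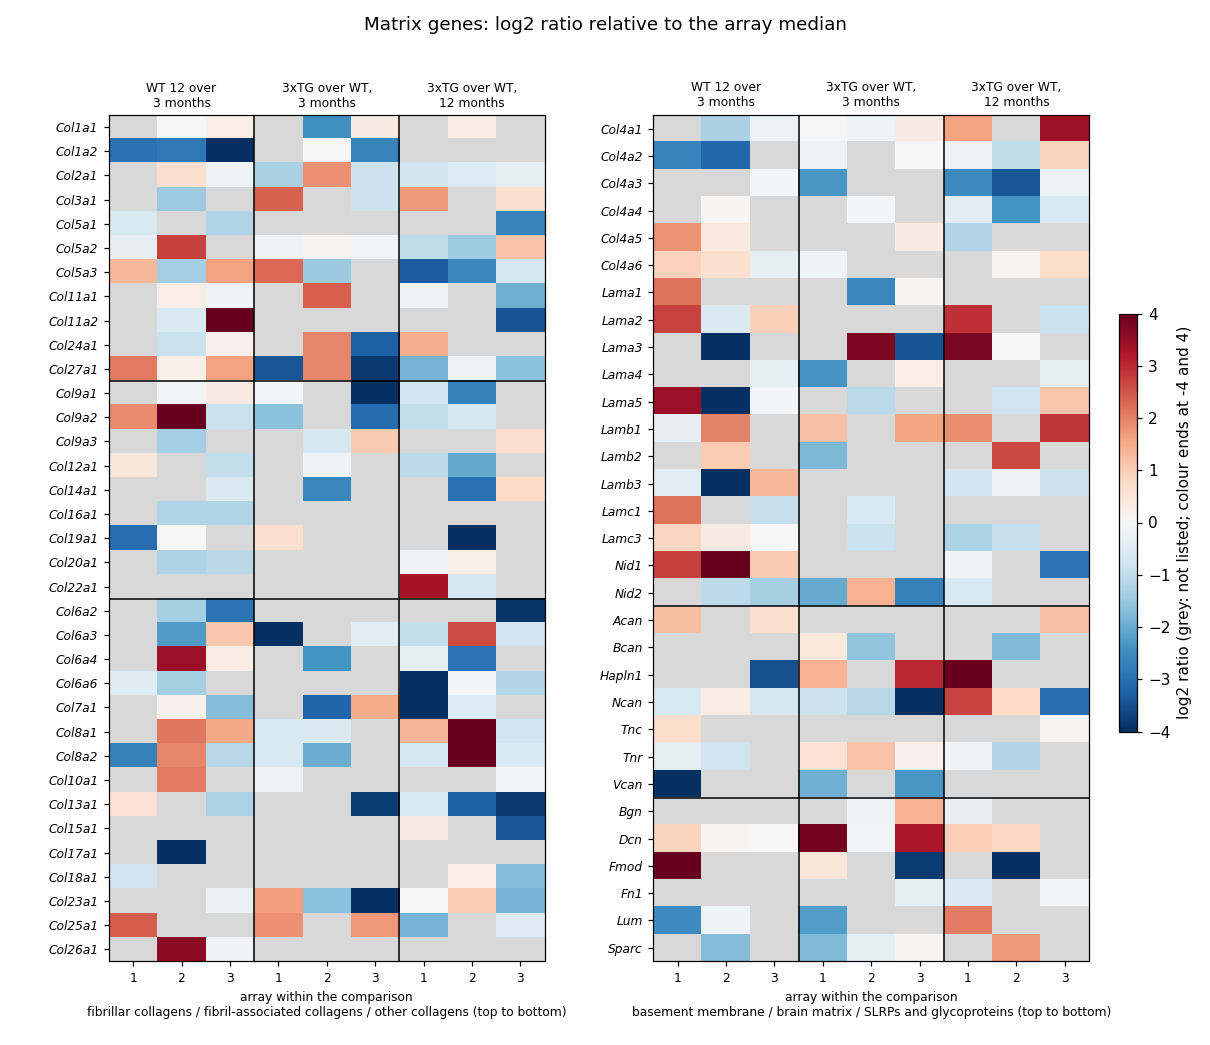
Log2 ratio of each of the 66 matrix genes (rows, grouped by class) on each of the 9 arrays (columns, grouped by comparison), relative to the array median; red is above 0, blue below, and grey marks a gene not listed on that array. On the 3 arrays of 3xTG over WT at 12 months the collagen rows are mostly blue, and most genes have gaps.

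Collagens lay below the array median in 3xTG hippocampus. In 3xTG over WT at 12 months the median of the collagens listed on an array was -0.72, -0.66 and -0.68 on the 3 arrays, a mean of -0.68 ± 0.03 (SD, n = 3 arrays). The arrays hardly differ in this median, including the array with 3xTG RNA in Cy5, but they share mice and single genes agreed less. Of the matrix genes listed on both arrays, 20 of 26 lay on the same side of 0 on arrays 1 and 2, or 76.9%, against 65.4% of all genes. On arrays 1 and 3 it was 18 of 24, or 75.0%, against 62.5%. On arrays 2 and 3 it was 9 of 19, or 47.4%, against 61.4%. Of 78 collagen values at 12 months 21 were above 0, or 26.9%, against 54.2% of the values of all genes. At 3 months the collagen medians were -0.19, -0.38 and -0.63, a mean of -0.40 ± 0.22 (SD, n = 3 arrays), and 17 of 54 values were above 0, or 31.5%, against 51.0% for all genes. In WT at 12 over 3 months they were 0.07, 0.00 and -0.23, a mean of -0.06 ± 0.16 (SD, n = 3 arrays), close to the all-gene medians, with 33 of 74 values above 0, or 44.6%, against 47.8%. These are descriptions of lists of genes, with no test over the list. Of the cell type markers, those of the choroid plexus were above 0 in 4 of 13 values at 12 months, or 30.8%, with array medians of -1.74, -2.66 and 2.47, and those of endothelium in 4 of 11, or 36.4%. Ttr, the transthyretin of choroid plexus, was at -3.57, -3.49 and -3.73 there (fitted -3.45 ± 0.83, SE, limma adjusted p = 0.145). The other 6 marker lists had 50% to 75% of values above 0 at 12 months. The part of these cell types in the collagen values was not tested.

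Other gene groups had array medians away from 0 on the same arrays. Keratin-associated proteins and the receptors of taste, smell and the vomeronasal organ, 832 genes not known for expression in hippocampus, had a mean array median of -0.50 ± 0.12 at 12 months (SD, n = 3 arrays), with 36.9% of values above 0. At 3 months it was -0.67 ± 0.60, with 41.3% above 0, and in WT at 12 over 3 months 0.29 ± 0.19, with 57.2% above 0. Abundant transcripts of the ribosome, proteasome and respiratory chain lay the other way, at 2.13 ± 0.12 at 12 months, 0.69 ± 0.83 at 3 months and -0.71 ± 0.34 in WT at 12 over 3 months. The collagen median at 12 months thus lies nearer to that of the receptor families than to that of the abundant transcripts. The part of signal strength in the collagen values was not tested, since the table holds no intensities.

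The direction and the centre chosen for the arrays moved these values. At 12 months the mean collagen median was below 0 with arrays centred on their median, on abundant transcripts or not at all. At 3 months it was below 0 with either centring, but without centring it was -0.08 ± 1.00 (SD, n = 3 arrays), which settles no sign. In WT at 12 over 3 months its sign turned with the centre. Read as Cy5 over Cy3, the mean collagen median at 12 months would be 0.23 and at 3 months -0.02. Centred on the abundant transcripts, it would be -2.82 at 12 months, -1.10 at 3 months and 0.61 in WT at 12 over 3 months. Without centring, 12.8% of the collagen values at 12 months were above 0, against 37.2% for all genes, and at 3 months 51.9%, against 54.9%. For the age comparison, WT at 12 over 3 months, they were 87.8%, against 80.5%. After centring, the range with no listed probe ran from 0.37 to 1.37 on arrays 1 and 2 at 12 months and from 1.21 to 2.21 on array 3, and its part in the shares was not tested. Relative to the all-gene median of the same array, which no centring changes, the collagen median was -0.86 ± 0.05 at 12 months, -0.44 ± 0.22 at 3 months and 0.03 ± 0.14 in WT at 12 over 3 months (SD, n = 3 arrays).

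**Figure D2:**
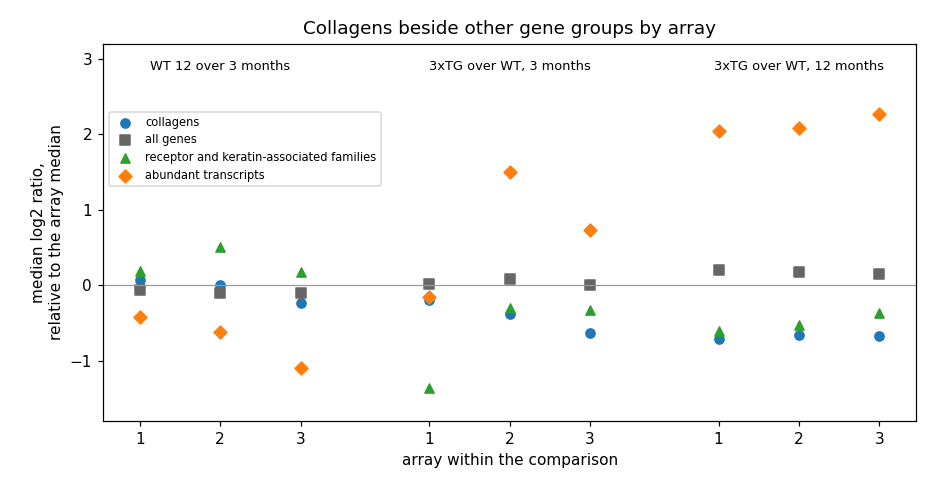
Median log2 ratio per array, relative to the array median, of collagens (circles), all genes (squares), receptor and keratin-associated families (triangles) and abundant transcripts (diamonds), for the 3 arrays of each comparison. At 12 months of age the collagens sit at -0.72 to -0.66, beside the receptor families and below all genes, while the abundant transcripts lie above 2.

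The sign of single genes was followed over the 3 arrays of a comparison. Of 15 matrix genes listed on all 3 arrays of 3xTG over WT at 12 months, 8 were below 0 on all 3, where 16.3% of all genes listed on all 3 were, and 0 were above 0 on all 3, where 30.4% of all genes were. Of the receptor and keratin-associated genes 28.2% were below 0 on all 3. The 8 were Col2a1, Col4a3, Col4a4, Col5a3, Col6a6, Col13a1, Col27a1 and Lamb3. At 3 months 1 of 10, Tnr, was above 0 on all 3 arrays, against 28.4% of all genes, and 1 of 10, Ncan, was below, against 19.8%. In WT at 12 over 3 months 3 of 13 were above 0 on all 3 arrays, Col27a1, Dcn and Nid1, against 15.6% of all genes, and 1 of 13, Col1a2, was below, against 23.3%.

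**Figure D3:**
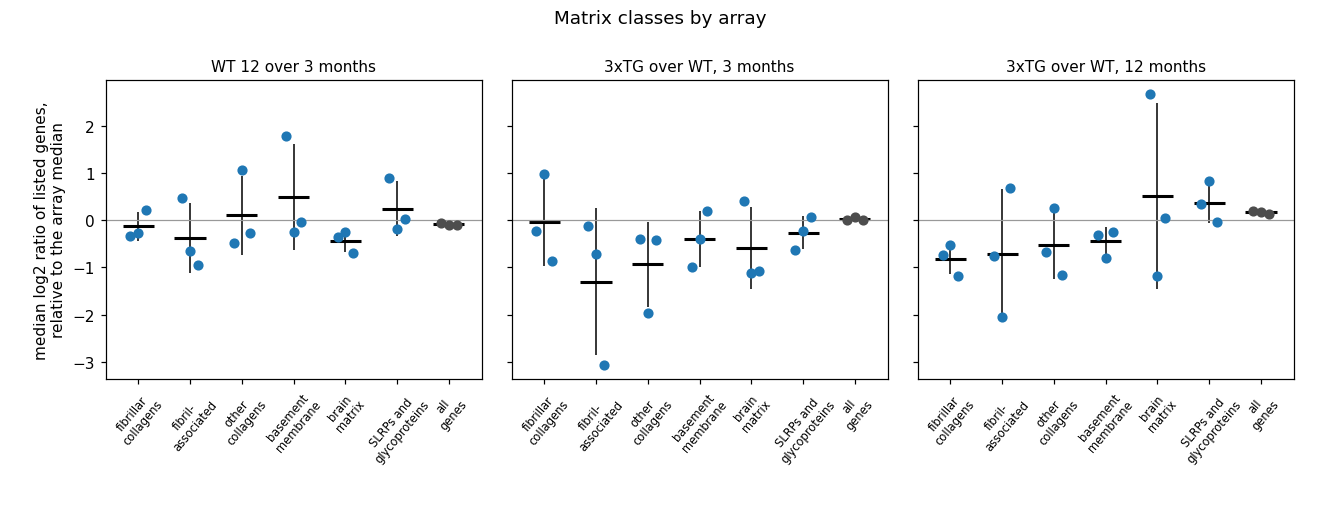
Median log2 ratio of the listed genes of each matrix class on each array (points), relative to the array median, with the mean (horizontal bar) and SD (vertical line) over the 3 arrays; all genes are on the right of each panel. Fibrillar collagens lie below 0 on all 3 arrays at 12 months, and brain matrix genes spread from -1.18 to 2.69 there.

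Fibrillar collagens as a class lay below 0 on all 3 arrays of 3xTG over WT at 12 months. Their array medians were -0.73, -0.53 and -1.17 there, a mean of -0.81 ± 0.33 (SD, n = 3 arrays), with 5 of 20 values above 0. The values above 0 included those of Col3a1, at 1.695 and 0.67 on arrays 1 and 3, and Col1a1, at 0.29 on array 2. Col1a2 was not listed at 12 months, so the class median does not speak for the chains of types I and III. At 3 months they were -0.22, 0.98 and -0.87, a mean of -0.03 ± 0.94, and in WT at 12 over 3 months -0.33, -0.27 and 0.22, a mean of -0.13 ± 0.30. The arrays agree in sign at 12 months and not in the other comparisons.

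All 4 tested fibrillar collagens had a fitted ratio below 0 at 12 months. Col5a3, a chain of type V collagen, which regulates fibril diameter, was at -3.33, -2.62 and -0.71 on the 3 arrays of 3xTG over WT at 12 months, and was fitted at -1.97 ± 1.04 (SE, limma adjusted p = 0.342). It was below 0 on each array, lower where 3xTG RNA was in Cy3, which are the arrays of 3xTG mouse 4. At 3 months its 2 listed values, 2.26 and -1.49, had opposite signs (fitted 1.24 ± 1.46, SE), and in WT at 12 over 3 months it was at 1.34, -1.35 and 1.60 (fitted 0.76 ± 1.04, SE).

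Col27a1, a fibrillar collagen best known from cartilage, was 1 of 2 matrix genes listed on all 9 arrays. Its values were -1.87, -0.20 and -1.63 in 3xTG over WT at 12 months, -3.42, 1.95 and -3.83 at 3 months, and 2.07, 0.23 and 1.61 in WT at 12 over 3 months. The fitted ratios were -1.40 ± 1.18, -2.08 ± 1.18 and 1.22 ± 1.19 (SE; limma adjusted p = 0.566, 0.406 and 0.772). It was thus below 0 in 5 of 6 genotype arrays and above 0 on all 3 age arrays. Its 2 probes disagreed where both were listed, as on array 3 at 12 months, with -4.16 and 0.90.

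Col2a1, the main collagen of cartilage, was at -0.73, -0.53 and -0.38 in 3xTG over WT at 12 months, close together and below 0 (fitted -0.60 ± 0.89, SE, limma adjusted p = 0.782). At 3 months it was at -1.30, 1.84 and -0.85, with array 2 on the other side. Col5a2, which pairs with Col5a1 in type V collagen, was at -1.01, -1.43 and 1.13 at 12 months (fitted -0.39 ± 0.95, SE), and at -0.22, 0.12 and -0.12 at 3 months. Its values at 3 months lie near 0, but they average probes at 2.79 and -2.56 on array 2 and at 2.28 and -2.52 on array 3.

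The type I collagen chains, which make the bulk of connective tissue fibrils, were not tested. Col1a2 was at -3.0, -2.86 and -4.53 in WT at 12 over 3 months, a mean of -3.46 ± 0.93 (SD, n = 3 arrays), well below 0 on each array. Col1a1, its partner chain, was listed on 2 of these arrays, at 0.02 and 0.26, so the partner chains differ there. At 3 months Col1a2 was at -0.03 and -2.66 on arrays 2 and 3 of 3xTG over WT, and Col1a1 at -2.46 and 0.37 on the same arrays. Leptomeningeal fibroblasts make type I collagen at the brain surface. Of the values of their 10-gene marker list 6 of 16 were above 0 in WT at 12 over 3 months. This is 37.5%, against 47.8% of the values of all genes. Of the 5 tested markers 4 had a fitted ratio below 0, against 53.7% of all genes. Slc6a13 was fitted at -3.42 ± 0.77 (SE, limma adjusted p = 0.108) and Igf2 at -2.53 ± 0.77 (SE, adjusted p = 0.195). Slc22a6 was at 1.10 and 0.27 on the arrays that listed it (fitted 0.69 ± 1.13, SE). Mgp was at 1.76 and 0.70, but its fitted ratio was below 0, at -1.92 ± 1.76 (SE). The part of these cells in the Col1a2 values was not tested.

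**Figure D4:**
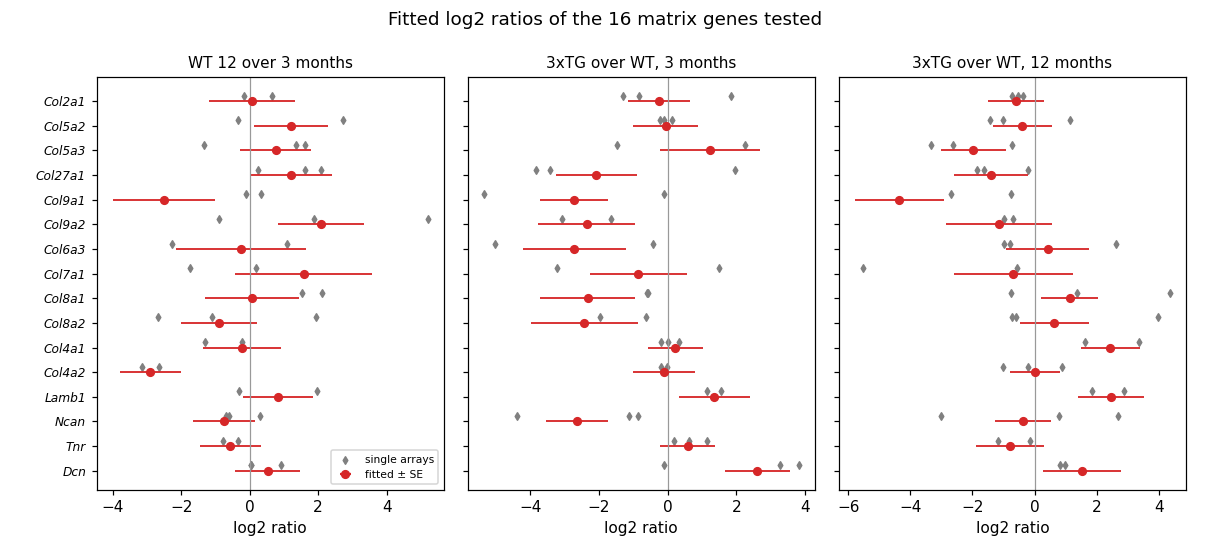
Fitted log2 ratio ± SE (red circles) and the single array values (grey diamonds) of the 16 matrix genes tested, by comparison. The SE bars are about 1 log2 unit wide on each side, and Col9a1 and Col4a2 have fitted values furthest below 0.

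Fibril-associated collagens coat fibrils and link them to other matrix. Col9a1, a chain of type IX collagen, had the lowest p of the 16 genes in 3xTG over WT at 12 months. It was at -0.76 and -2.70 on arrays 1 and 2 and was not listed on array 3, and its fitted ratio was -4.35 ± 1.44 (SE, limma adjusted p = 0.171). Both listed arrays have 3xTG RNA of the same mouse, mouse 4, in Cy3, and the fitted value lies below both. Without the dye term it was -1.73 (adjusted p = 0.517), and across all other settings it ran from -6.81 to -1.0 (adjusted p = 0.0565 to 1.00). At 3 months Col9a1 was at -0.12 and -5.36 on arrays 1 and 3 (fitted -2.74 ± 0.99, SE, adjusted p = 0.244), so array 3 carries that value. Its array values in the age comparison were -0.11 and 0.32 and its fitted ratio -2.51 ± 1.5 (SE, adjusted p = 0.559), but 0.24 without the dye term.

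Col9a1 has 2 annotated starts on chromosome 1 and 2 probes on the array, which gave -3.39 and 1.87 on array 1 at 12 months and -4.28 and -1.13 on array 2. The 250 bases before each start (RefSeq, GRCm38.p6, plus strand) are shown because Col9a1 had the lowest p at 12 months and its probes disagree. Capitals mark CCAAT, found in the second window and not in the first, and neither window holds the other motifs on either strand.

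Col9a1 first start, chr1:24177360-24177609: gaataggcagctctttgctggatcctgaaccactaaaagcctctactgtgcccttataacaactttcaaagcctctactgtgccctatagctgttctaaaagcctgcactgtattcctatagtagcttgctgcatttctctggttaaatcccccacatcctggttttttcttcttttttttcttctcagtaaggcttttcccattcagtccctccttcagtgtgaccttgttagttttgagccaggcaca

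Col9a1 second start, chr1:24194953-24195202: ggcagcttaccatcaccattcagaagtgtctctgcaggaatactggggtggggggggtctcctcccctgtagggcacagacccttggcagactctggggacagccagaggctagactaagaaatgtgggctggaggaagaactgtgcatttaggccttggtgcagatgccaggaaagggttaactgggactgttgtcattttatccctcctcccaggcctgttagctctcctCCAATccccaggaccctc

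The windows have a G and C content of 43.6% and 56%. The sources used here do not say which transcript each probe detects. Col9a2, the second chain of type IX collagen, was at -0.98 and -0.69 on arrays 1 and 2 of 3xTG over WT at 12 months (fitted -1.13 ± 1.71, SE). It was at -1.65 and -3.07 on arrays 1 and 3 at 3 months (fitted -2.36 ± 1.41, SE, limma adjusted p = 0.428), and at 1.88, 5.20 and -0.91 in WT at 12 over 3 months (fitted 2.08 ± 1.26, SE). Both tested type IX chains were thus below 0 on all listed genotype arrays, which at 12 months are of 3xTG mouse 4 alone. Col9a3, the third chain, was not tested and did not share this sign, at 0.63 on 1 array at 12 months and at -0.71 and 1.03 at 3 months.

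The other collagens include the network-forming types VI, VIII and X, the anchoring type VII, and transmembrane collagens. Col8a1, a short-chain collagen of vessel walls, was at 1.35, 4.36 and -0.77 in 3xTG over WT at 12 months (fitted 1.13 ± 0.92, SE, limma adjusted p = 0.558), and at -0.61 and -0.58 at 3 months (fitted -2.33 ± 1.38, SE, adjusted p = 0.423). The difference between the 2 genotype effects was 3.46 ± 1.51 (SE, unadjusted p = 0.0496, limma adjusted p = 0.529), the lowest of the 16 genes. The fitted value at 3 months lies below both array values, and without the dye term it was -0.60 and the difference 2.26 (unadjusted p = 0.179). Its partner chain Col8a2 was at -0.72, 3.98 and -0.60 at 12 months and at -0.63 and -1.97 at 3 months, with a difference of 3.06 ± 1.80 (SE, adjusted p = 0.605). Its fitted ratio at 3 months was -2.43, and -1.20 without the dye term. In both genes array 2 at 12 months, of mouse 4 against mouse 25, is the high one. For Col8a2, with the same probe on all 3 arrays, the other arrays of that age lie far below it. The 2 probes of Col8a1 disagreed. At 12 months 1 was at 3.88 and 4.36 on arrays 1 and 2, and the other at -1.17 and -0.77 on arrays 1 and 3. At 3 months they were at -3.48 and 2.255 on array 1, which average to the -0.61 given above.

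Col6a3, a chain of type VI collagen, was at -0.99, 2.61 and -0.78 at 12 months and at -5.01 and -0.42 at 3 months (fitted -2.72 ± 1.51, SE, at 3 months). Col7a1, the anchoring fibril collagen, was at -5.52 and -0.56 at 12 months and at -3.21 and 1.49 at 3 months. The arrays of each gene disagree by more than the fitted ratios. Col13a1, a transmembrane collagen, was not tested and was at -0.61, -3.23 and -3.83 in 3xTG over WT at 12 months, a mean of -2.56 ± 1.71 (SD, n = 3 arrays). Col6a6, a type VI chain, was at -4.21, -0.09 and -1.16 there, a mean of -1.82 ± 2.14 (SD, n = 3 arrays). Both were below 0 on each array, by very unequal amounts.

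Basement membrane genes had mixed values. Their array medians were -0.31, -0.79 and -0.24 in 3xTG over WT at 12 months, a mean of -0.45 ± 0.30 (SD, n = 3 arrays), -0.99, -0.40 and 0.19 at 3 months, a mean of -0.40 ± 0.59, and 1.79, -0.26 and -0.03 in WT at 12 over 3 months, a mean of 0.50 ± 1.12. The last rests on array 1, without which it would be -0.15. At 12 months the class median lies below the all-gene medians, and its laminins alone averaged 0.42 ± 1.25 with 6 of 15 values above 0.

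Within the type IV collagens the head-to-head pairs differed from each other. In 3xTG over WT at 12 months Col4a1 was at 1.62 and 3.38 on arrays 1 and 3 (fitted 2.44 ± 0.94, SE, limma adjusted p = 0.216), and Col4a2, its partner in the main chain pair of vessel basement membranes, at -0.21, -1.0 and 0.88 (fitted 0.01 ± 0.79, SE, adjusted p = 0.995). Col4a1 was above 0 on both listed arrays, while Col4a2 lay to either side. Both chains of this pair, whose 30 shared bases are printed above, were listed on arrays 1 and 3, and Col4a1 was the higher on each, with opposite signs on array 1 and both above 0 on array 3.

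In WT at 12 over 3 months Col4a2 was at -2.67 and -3.14 on arrays 1 and 2 (fitted -2.90 ± 0.90, SE, limma adjusted p = 0.195), and Col4a1 at -1.30 and -0.23 on arrays 2 and 3 (fitted -0.22 ± 1.14, SE). At 3 months Col4a1 lay between -0.18 and 0.34 on its arrays and Col4a2 between -0.19 and -0.03. The second pair, Col4a3 and Col4a4, chains best known from kidney basement membranes, was below 0 on all 3 arrays in 3xTG over WT at 12 months. Col4a3 was at -2.55, -3.44 and -0.24, a mean of -2.08 ± 1.65 (SD, n = 3 arrays), and Col4a4 at -0.41, -2.39 and -0.64, a mean of -1.15 ± 1.08 (SD, n = 3 arrays). Both were lowest on array 2. Neither was tested. Col4a5 was at -1.19 on the 1 array that listed it at 12 months, and Col4a6 at 0.07 and 0.74.

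**Figure D5:**
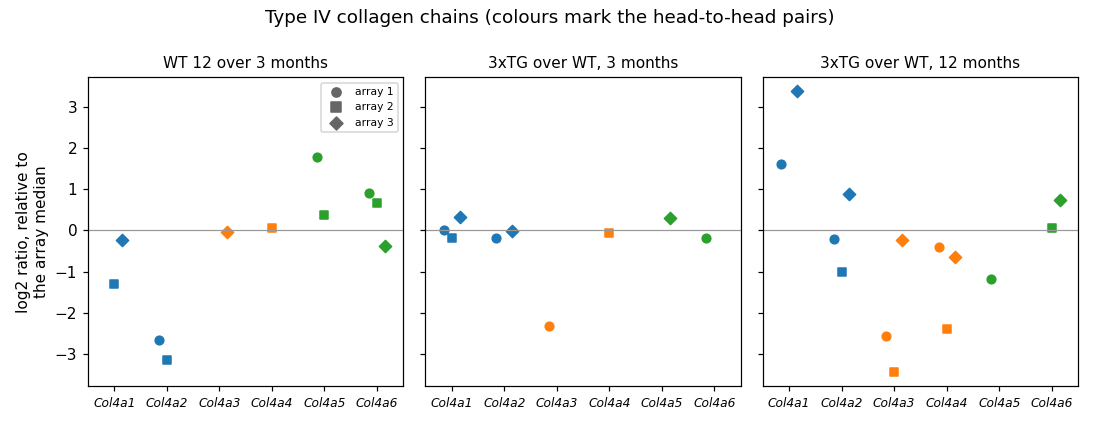
Log2 ratios of the 6 type IV collagen chains on each array, relative to the array median, by comparison; marker shapes are the 3 arrays and colours the head-to-head pairs. At 12 months Col4a1 is above 0, Col4a2 on either side, and Col4a3 and Col4a4 below 0 on all 3 arrays.

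Laminins, the cross-shaped adhesion proteins of the basement membrane, and nidogens, which tie laminin to type IV collagen, did not follow 1 direction. Lamb1, a beta chain of many laminins, was at 1.85 and 2.87 in 3xTG over WT at 12 months (fitted 2.45 ± 1.07, SE, limma adjusted p = 0.280) and at 1.16 and 1.57 at 3 months (fitted 1.36 ± 1.03, SE, adjusted p = 0.534), so it was above 0 on all 4 genotype arrays that listed it. Lamb3, a beta chain of epithelial laminin, was at -0.78, -0.22 and -0.87 at 12 months, a mean of -0.62 ± 0.35 (SD, n = 3 arrays), and was not tested. Nid1 was at 2.72, 4.05 and 1.06 in WT at 12 over 3 months, a mean of 2.61 ± 1.5 (SD, n = 3 arrays), while Nid2, its close relative, was at -1.06 and -1.33 on arrays 2 and 3. Lama2, the laminin alpha chain of brain and muscle, was at 2.70, -0.57 and 0.97 in the same comparison, with array 2 on the other side.

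Brain matrix genes had the widest spread among arrays of the 6 classes at 12 months. Array medians were 2.69, -1.18 and 0.04 in 3xTG over WT at 12 months, a mean of 0.52 ± 1.98 (SD, n = 3 arrays) over the 3 genes listed on each array. At 3 months they were 0.42, -1.12 and -1.07, a mean of -0.59 ± 0.87, and in WT at 12 over 3 months -0.36, -0.24 and -0.70, a mean of -0.43 ± 0.24. At 12 months the sign changed with the array, and without array 1 the mean was -0.57.

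Ncan encodes neurocan, a lectican proteoglycan of the developing and adult brain, and was the other gene listed on all 9 arrays. It was at 2.69, 0.78 and -3.0 in 3xTG over WT at 12 months, so its sign was not settled there (fitted -0.37 ± 0.91, SE, limma adjusted p = 0.878). At 3 months it was at -0.85, -1.12 and -4.39, below 0 on each array, with a fitted ratio of -2.63 ± 0.91 (SE, adjusted p = 0.198), the lowest p of the 16 genes. Its lowest value came from array 3, and the fitted value was between -3.32 and -1.32 across the other settings. At 3 months each array listed different probes of Ncan, so arrays and probes cannot be told apart there. The value of array 1 averages probes at -2.17 and 0.47. In WT at 12 over 3 months it was at -0.61, 0.30 and -0.70 (fitted -0.76 ± 0.91, SE). Its 4 probes disagreed, with values 3.44 apart on array 1 of that comparison.

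Tnr encodes tenascin-R, a glycoprotein of perineuronal nets and nodes. It was at -0.15 and -1.18 in 3xTG over WT at 12 months (fitted -0.79 ± 1.09, SE, limma adjusted p = 0.755), and at 0.61, 1.13 and 0.19 at 3 months (fitted 0.58 ± 0.80, SE, adjusted p = 0.755). The listed arrays of the 2 ages do not overlap, and the difference between the genotype effects was -1.37 ± 1.27 (SE, adjusted p = 0.754). Only 1 of its 2 probes changed sign between the ages, and the other was above 0 at both. Hapln1, the link protein that fixes lecticans to hyaluronan, was at 3.97 on the 1 array that listed it at 12 months, and at 1.38 and 3.02 at 3 months. Acan, the aggrecan of perineuronal nets, was at 1.18 on 1 array at 12 months and at 1.22 and 0.64 in WT at 12 over 3 months. Bcan, brevican, was at -1.78 on 1 array at 12 months and at 0.42 and -1.60 at 3 months, while Vcan was at -1.92 and -2.33 at 3 months. Tnc was listed on 1 array at 12 months, at 0.04.

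The small leucine-rich proteoglycans bind collagen fibrils and growth factors. Dcn, decorin, was at 0.98 and 0.83 in 3xTG over WT at 12 months (fitted 1.53 ± 1.26, SE) and at 3.82, -0.11 and 3.27 at 3 months (fitted 2.61 ± 0.94, SE, limma adjusted p = 0.221). At 3 months arrays 1 and 3 are high and array 2 is near 0. Arrays 1 and 3 listed the same Dcn probe there and array 2 another, so arrays and probes cannot be told apart. The value of array 1 at 12 months averages Dcn probes at 2.21 and -0.245. The age comparison gave 0.91, 0.05 and 0.03 (fitted 0.52 ± 0.94, SE). Choroid plexus markers, which are not hippocampal, were above 0 in 14 of 16 values at 3 months, or 87.5%, against 51.0% for all genes. Leptomeningeal markers were above 0 in 10 of 18, or 55.6%, near the share of all genes. The part of either list in the Dcn value was not tested. Lum, lumican, was at 2.06 on 1 array at 12 months, at -2.23 on 1 array at 3 months and at -2.51 and -0.19 in WT at 12 over 3 months. Sparc, a collagen-binding glycoprotein, was at 1.69 on 1 array at 12 months and at -1.76, -0.38 and 0.07 at 3 months. Fn1, fibronectin, was at -0.57 and -0.04 at 12 months. Fmod, fibromodulin, was at -5.24 on 1 array at 12 months, at 0.49 and -3.80 at 3 months, and at 4.56 on 1 array of WT at 12 over 3 months. Bgn, biglycan, was at -0.30 on 1 array at 12 months and at -0.22 and 1.40 at 3 months, so the class had no common sign.

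Enzymes, receptors and partners of the matrix were followed through lists of 105 further genes, of which 98 were on the array, 32 were tested and 0 passed in any comparison at an adjusted p under 0.05. At an unadjusted p under 0.05, 4 of the 32 lay above 0 in 3xTG over WT at 12 months, against 15.4% of all genes, and 0 below, against 2.74%. At 3 months 0 lay above, against 10.5%, and 4 below, against 6.29%, and in WT at 12 over 3 months 1 lay above, against 3.32%, and 2 below, against 10.8%. Among the 6 tested genes of collagen synthesis and cross-linking none had an unadjusted p under 0.05. Bmp1, the procollagen C-proteinase, was fitted at -1.91 ± 1.06 at 3 months, Colgalt2, a collagen galactosyltransferase, at 2.45 ± 1.45 at 12 months, and Loxl1, a cross-linking enzyme, at 1.37 ± 0.99 at 12 months (SE).

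Of 9 tested proteases and inhibitors, 2 lay below 0 at an unadjusted p under 0.05 at 3 months, against 6.29% of all genes. Mmp24, a membrane-bound metalloproteinase of neurons, was at -1.46, -0.99 and -7.29 there (fitted -3.57 ± 1.27, SE, limma adjusted p = 0.217), and Mmp7 at -2.20, -1.40 and -2.18 (fitted -2.11 ± 0.91, SE, adjusted p = 0.293). Mmp14, the membrane collagenase, was at 1.99 and 3.27 in WT at 12 over 3 months (fitted 2.63 ± 0.97, SE, adjusted p = 0.281). The Mmp24 value at 3 months comes largely from array 3, while Mmp7 lies close together on all 3.

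All 7 tested matrix receptors, the proteins through which cells bind the matrix, had a fitted ratio below 0 in WT at 12 over 3 months, with a median of -1.29 against -0.15 for all genes, and 5 of 7 were above 0 in 3xTG over WT at 12 months, with a median of 1.51 against 0.48. Over all 27 receptors on the array, tested or not, 20 of 41 values were above 0 at 12 months, or 48.8%, against 54.2% of the values of all genes, with array medians of -0.20, 0.26 and -0.18. In WT at 12 over 3 months 10 of 42 were above 0, or 23.8%, against 47.8%. Ptprs, a phosphatase receptor that binds chondroitin and heparan sulfate chains, was at -2.80, -3.69 and -4.53 in WT at 12 over 3 months (fitted -3.49 ± 0.77, SE, limma adjusted p = 0.106) and at 1.90, 2.44 and 2.44 in 3xTG over WT at 12 months (fitted 2.41 ± 0.77, SE, adjusted p = 0.162). Sdc2, a heparan sulfate proteoglycan of the cell surface, was fitted at -1.78 ± 0.80 in WT at 12 over 3 months and at 2.44 ± 0.80 in 3xTG over WT at 12 months (SE). Dag1, dystroglycan, was fitted at -1.40 ± 1.33 in WT at 12 over 3 months and at 2.33 ± 1.10 in 3xTG over WT at 12 months (SE). These comparisons share the WT mice of 12 months, which are on top of the first ratio and below the second, so their values are not independent.

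Among the 4 tested partners of the basement membrane none had an unadjusted p under 0.05. Agrn, agrin, was fitted at -1.74 ± 1.12 at 12 months, Hspg2, perlecan, at 1.45 ± 1.40 at 3 months and Frem2 at -0.71 ± 0.94 at 3 months (SE). Of 6 tested partners of perineuronal nets, 1 had a fitted ratio below 0 at 12 months, against 40% of all genes, and over the 15 on the array 15 of 23 values were above 0, or 65.2%, against 54.2%. Csgalnact1, which starts chondroitin sulfate chains, was at 6.19 and 3.17 on arrays 1 and 3 (fitted 4.49 ± 1.36, SE, limma adjusted p = 0.162). Has2, a hyaluronan synthase, was at -2.91, -3.56 and -3.55 in 3xTG over WT at 3 months, close together (fitted -3.21 ± 0.93, SE, adjusted p = 0.182). Chpf, a chondroitin polymerising factor, was at -4.08, -3.76 and -3.32 in WT at 12 over 3 months (fitted -3.83 ± 0.76, SE, adjusted p = 0.0971), also close together.

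The fitted ratios of the 16 matrix genes had medians of -0.38 in 3xTG over WT at 12 months, against 0.48 for all genes tested, -0.55 at 3 months, against 0.12, and 0.06 in WT at 12 over 3 months, against -0.15. Fitted ratios below 0 were found for 9 of 16 at 12 months, against 40% of all genes, for 11 of 16 at 3 months, against 47.1%, and for 7 of 16 in WT at 12 over 3 months, against 53.7%. At 3 months 10 of the 12 tested collagens were below 0, at 12 months 7 of 12, and in WT at 12 over 3 months 5 of 12. For the difference between the genotype effects the medians were 0.42 for the matrix genes and 0.40 for all genes.

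The spread behind these values was large. At 3 months arrays 1 and 2, 1 and 3, and 2 and 3 put 5 of 14, 16 of 21 and 4 of 18 matrix genes on the same side of 0. These are 35.7%, 76.2% and 22.2%, against 64.0%, 60.7% and 63.1% of all genes. In WT at 12 over 3 months it was 13 of 21, 10 of 18 and 13 of 29. These are 61.9%, 55.6% and 44.8%, against 56.6%, 57.1% and 60.4%. Where several probes of a gene were listed on 1 array, which held for 50 pairs of gene and array, their signs differed in 31, and the median range between them was 2.38. Over the genes listed on all 3 arrays the median SD between arrays was 1.46 for matrix genes and 1.28 for all genes at 12 months, 1.83 and 1.34 at 3 months, and 1.5 and 1.28 in WT at 12 over 3 months.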

How the data were processed

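The deposited values are log2 ratios per probe from 9 two-colour arrays. How the authors corrected, filtered and normalized them, and the log base, is not stated in the labels; base 2 and the direction were read from the values and the labels. Array medians ran from -1.71 to 2.34 before centring, and 45.7 to 54.1% of probes were listed per array. The table has no intensities, and few arrays limit the precision.

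Each array was centred on its median, and probes of a symbol were averaged. Symbols were updated through RefSeq synonyms (GRCm38.p6), which changed the symbol of 4 of the 92 matrix probes. A generalised least squares model of gene means, run with limma 3.58.1 under R 4.3.3, had a term per comparison, a dye term and a covariance from shared mice (variance ratio 0.115, estimated on 516 genes listed on all arrays), then eBayes and Benjamini-Hochberg adjustment over 3944 genes, with a threshold of 0.05. Scripts were tested on simulated data. With 2 mice per group and arrays that share mice, p-values rest on few animals, and per the labels 3 of the 9 arrays are technical replicates.

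The matrix genes, classes and partner lists were chosen with earlier results of these data known. Genes named in full are the tested matrix genes. Untested ones are named with array values where all 3 arrays of a comparison had one sign, and of each partner list the 3 tested genes of smallest p are named. Other untested matrix genes (Col1a1, Col3a1, Lama2, Nid2, Col4a5, Col4a6, Hapln1, Acan, Bcan, Vcan, Tnc, Lum, Sparc, Fn1, Fmod, Bgn, Col9a3 and Col25a1) and the markers Slc6a13, Igf2, Slc22a6, Mgp and Ttr were added after their values were seen. A part of the 3xTG strain label is not reported here. Alternatives covered centring, direction, dye term, covariance, filter, probes, number ranges in the raw file names and leaving out arrays.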

Additional observations from a re-analysis of the deposited data

Results flagged for a closer look

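Among the matrix genes, 2 had opposite signs in the genotype comparisons at the 2 ages on all arrays that listed them, with at least 2 arrays listed at each age. The share of all genes that meet this rule was not counted. The 2 genes are thus described singly, and their number cannot be read as a trait of matrix genes. Col25a1 encodes a transmembrane collagen whose shed ectodomain is known as a component of amyloid plaques. It was at -1.88 and -0.52 on arrays 1 and 3 of 3xTG over WT at 12 months, and at 1.82 and 1.72 on arrays 1 and 3 at 3 months, a difference between the means of -2.97. Its values kept these signs without centring and with arrays centred on abundant transcripts. It was listed on 1 array of WT at 12 over 3 months, at 2.42, so it was not among the genes fitted and the difference was not tested.

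Tnr, tenascin-R, had a mean of 12 months minus 3 months of -1.31. Of its 2 probes only 1 changed sign, from 0.61 and 2.10 at 3 months to -0.59 and -2.53 at 12 months. The other was above 0 at both ages, at 0.16 and 0.19 and at 0.30 and 0.17. Its interaction in the fit did not pass (limma, -1.37 ± 1.27, SE, adjusted p = 0.754). Centred on abundant transcripts, 2 of its 3 values at 3 months were below 0.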

How the results depend on the processing

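No matrix gene was called under any alternative run, including each array left out in turn. Over all genes tested, calls were made without the dye term (47 in WT at 12 over 3 months and 11 in 3xTG over WT at 3 months), with arrays as independent (35 and 23), and among genes listed on all 9 arrays (17 and 27, and 20 at 12 months); the cause was not tested. Reading ratios as Cy5 over Cy3 turned 37 of 64 fitted matrix gene values, no centring 16 and centring on abundant transcripts 14. Read as Cy5 over Cy3, 134 of 3944 genes had an unadjusted p under 0.05 at 12 months, 126 at 3 months and 131 in WT at 12 over 3 months, against 714, 663 and 556 as labelled.

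Class medians moved most with centring. Without centring, WT at 12 over 3 months gave 1.77 for fibrillar collagens, 2.40 for basement membrane, 1.47 for brain matrix and 1.85 for all collagens, 3xTG over WT at 3 months gave -0.079 for all collagens, and 12 months gave -1.96 for fibrillar collagens, -1.60 for basement membrane and -1.83 for all collagens. Centred on abundant transcripts, the values were 0.54 for fibrillar collagens, 0.23 for brain matrix and 0.61 for all collagens in WT at 12 over 3 months, -1.10 for basement membrane and -1.10 for all collagens at 3 months, and -2.94, -2.58, -1.61 and -2.82 for fibrillar collagens, basement membrane, brain matrix and all collagens at 12 months. Read as Cy5 over Cy3, brain matrix was 0.20 in WT at 12 over 3 months, basement membrane 0.53 and all collagens -0.019 at 3 months, and fibrillar collagens 0.030, basement membrane 0.29 and all collagens 0.23 at 12 months. Means over genes gave -0.69 for brain matrix in WT at 12 over 3 months, -0.78 for all collagens at 3 months, and -0.051 for basement membrane and -0.78 for all collagens at 12 months. Genes listed on all 3 arrays gave 0.53 for fibrillar collagens and 0.31 for all collagens in WT at 12 over 3 months, and -0.91 for basement membrane at 12 months. Probes taken singly gave -0.59 for all collagens at 12 months. All values for all collagens were added after seeing the data. The cause of these shifts was not tested, except that centring moves all genes of an array alike.

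Leaving out 1 array at a time gave -0.70 to -0.67 for all collagens, -0.95 to -0.63 for fibrillar collagens, -0.55 to -0.27 for basement membrane and -0.57 to 1.37 for brain matrix at 12 months. At 3 months the ranges were -0.51 to -0.29, -0.54 to 0.38, -0.70 to -0.11 and -1.09 to -0.33 in that order, and in WT at 12 over 3 months -0.12 to 0.03, -0.30 to -0.03, -0.15 to 0.88 and -0.53 to -0.30. The replicate block, with the array number as a block, called 0 matrix genes and 0 genes in all. Deviations of same-numbered arrays correlated at -0.05 to 0.08, and those of other arrays at -0.12 to 0.11. The age and 3-month comparisons share a WT mouse on arrays 1 and on arrays 3, and these correlated at -0.05 and -0.03. The correlations are near 0 even for arrays with a shared mouse, so they cannot show whether the numbers pair samples. The raw file names carry a V number, which may be a slide number and is shared by 2 arrays of different comparisons. A term for its 2 ranges, in place of the dye term, left the calls at 0. All age arrays lie in the lower range, so no age value within the higher range exists.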
